A study of Homo sapiens with 6 samples.

Results

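The messenger RNAs of the respiratory chain and of ATP synthase were examined in U87-MG cells, an established human glioblastoma line. Genes were selected by their symbols, as protein-coding genes named for subunits of complexes I to V, and 103 of the 61731 genes and loci in the deposited table met the rule. Of these, 13 lie in the mitochondrial genome and 90 in the nuclear genome. The family was picked with the difference between knockdown and control in these same libraries known. That difference is therefore given as a description, and nothing was read from the number of members called.

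Total RNA from 3 negative control libraries and 3 libraries labelled CHRM knockdown was sequenced. The study knocked down CHRM3, the gene of the muscarinic receptor M3, with lentivirus. The values are TPM, the share of a library that a transcript takes after its length is divided out, and how deeply each library was sequenced is unknown. Whether replicates stand for separate cultures is not stated in the labels, the knockdown numbers could also stand for the 3 knockdown sequences that the study lists, and p-values below measure the spread between these libraries, which may be technical.
CHRM3 itself was 0.02, 0.09 and 0.13 TPM in control replicates 1, 2 and 3. It was 0.13, 0.01 and 0.02 TPM in the libraries labelled knockdown replicates 1, 2 and 3. The groups overlapped, near the rounding step of 0.01 TPM, and a reduction was not detectable. Each group below therefore rests on its label.
The glioma marker VIM had means of 6574 TPM in controls and 7376 TPM under the knockdown label, and CD44 had 597.3 and 473.5 TPM, without overlap in either gene. The glioma and progenitor marker NES was low, with means of 2.25 and 3.58 TPM and no overlap, and SOX2 reached 0.09 TPM at most. Of the astrocyte markers, GFAP lay between 0.87 and 1.46 TPM, and SLC1A3 had means of 23.5 and 15.7 TPM, again without overlap. The astrocyte marker AQP4 was listed at 0 TPM throughout, and S100B and ALDH1L1 reached 0.42 and 0.01 TPM at most. Of the leukocyte genes, TYROBP and CD3E were listed at 0 TPM throughout, and PTPRC reached 0.12 TPM at most.

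Oxidative phosphorylation passes electrons from NADH through complex I, or from succinate through complex II, to ubiquinone, then through complex III and cytochrome c to complex IV, where oxygen is reduced. Complexes I, III and IV pump protons across the inner mitochondrial membrane, and complex V, the ATP synthase, uses their return to make ATP. Each complex except complex II joins subunits encoded in mitochondrial DNA, which is transcribed as long polycistronic RNAs from both strands, with subunits encoded in the nucleus, which are made in the cytosol and imported.

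In the controls, transcripts of the 13 mitochondrial genes were far more abundant per length than those of the nuclear genes. Together they took 5.14, 5.24 and 5.29% of the TPM of control replicates 1, 2 and 3. The 90 nuclear genes took 2.84, 2.85 and 2.81%. The most abundant member was MT-ATP8, which ranked 6 among all genes by mean TPM, followed within the family by MT-CO2, which ranked 9. MT-ATP8 (207 bases) and MT-ND4L (297 bases) are the shortest of the 13 mitochondrial genes, and TPM divides by length. How far this raises their levels, ranks and part in the summed share was not tested. The most abundant nuclear member, ATP5MF, ranked 109. Control means ran from 612.2 TPM (MT-ND6) to 10319 TPM (MT-ATP8) among mitochondrial genes, with a median of 3139 TPM, and the median of the 82 tested nuclear genes was 260.7 TPM. The fit took genes whose mean reached 1 TPM, which were all 13 mitochondrial genes and 82 of the nuclear genes. The gene nearest the limit inside it was NDUFA4L2 at 1.04 TPM, and the nearest outside was UQCRHL at 0.323 TPM.
The 8 members under the limit were COX4I2, COX6A2, COX6B2, COX7A1, COX7B2, COX8C, ATP5MGL and UQCRHL. Most are paralogs known from heart and muscle, testis or lung.

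The promoters of nuclear members were searched for letters bound by 3 factors known to act at such genes. RefSeq promoter sequences (GRCh38.p14), running from 250 bases before to 50 bases after the start of a gene, matched 66 of the 82 tested nuclear members by symbol. The motif GCGCANGCG, of nuclear respiratory factor 1 (NRF1), was present on either strand in 21 of the 66 (31.8%), against 8.05% of 27305 promoters of the same length. The motif CCGGAAGT, of GABPA (nuclear respiratory factor 2), was in 10 (15.2% against 4.44%). The motif AAGATGGCG, of YY1, was in 8 (12.1% against 1.85%). None of these motifs contains another. The 27305 promoters were not limited to genes expressed in these libraries, nor matched in base content. Whether the shares are particular to this family was therefore not tested. The NRF1 letters were in 8 of 31 promoters of complex I, 2 of 3 of complex II, 4 of 7 of complex III, 1 of 10 of complex IV and 6 of 14 of complex V. They were in 8 of 31 promoters of members called higher below, 1 of 3 called lower and 12 of 32 not called. For GABPA these counts were 6, 0 and 4, and for YY1 they were 2, 1 and 5. A match describes the letters only and shows neither binding nor its absence.
The windows below are examples chosen by hand from the matches, to show letters of each motif and members of each complex, with the motif in capitals and 10 bases on each side, written in the direction of the gene.
COX5B (GABPA, chr2:97646015-97646042, plus strand): aagcccgcccCCGGAAGTccctcctgtc
NDUFS1 (GABPA, chr2:206159585-206159612, minus strand): ggctggggccACTTCCGGcggaactgcg
UQCRQ (GABPA, chr5:132866578-132866605, plus strand): atggtatctcCCGGAAGTtacctcacga
SDHD (GABPA, chr11:112086785-112086812, plus strand): ccgcctctcgACTTCCGGttcacccagc
SDHD (NRF1, chr11:112086753-112086781, plus strand): agctgtgtttGCGCATGCGcgacgggtgt
SDHA (NRF1, chr5:218144-218172, plus strand): ggtccgctttGCGCAGGCGcggcgccccc
NDUFA11 (NRF1, chr19:5903869-5903897, minus strand): cggtccccggCGCGTGCGCgcgatccatg
UQCRFS1 (NRF1, chr19:29213163-29213191, minus strand): cgcctcctcgCGCCTGCGCcgtggttgga
ATP5PF (YY1, chr21:25735093-25735121, minus strand): aggcgaagaaAAGATGGCGgaggctgtgc
SDHA held the NRF1 letters at 4 places before its start, at -166, -117, -68 and -19, and in SDHD the NRF1 and GABPA letters began at -110 and -78. All 9 windows lie before the start that RefSeq gives. In GENCODE 29, which places some starts further upstream, the COX5B, NDUFS1, UQCRQ, SDHD, NDUFA11, UQCRFS1 and ATP5PF windows overlap an annotated exon of the same gene. Exons of a neighbour overlap the windows of SDHA (CCDC127), NDUFS1 (EEF1B2), UQCRQ (GDF9) and SDHD (TIMM8B).

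In the libraries labelled knockdown, the summed mitochondrial transcripts took a smaller share and the nuclear ones a larger share than in the controls. The 13 mitochondrial genes took 4.70, 4.24 and 4.26% of knockdown replicates 1, 2 and 3, a mean of 4.40 ± 0.257% against 5.22 ± 0.0772% in the controls (SD, n = 3 each). The sum was 15.7% lower, and every library labelled knockdown lay below every control. The 90 nuclear genes took 3.06, 3.05 and 3.09%, a mean of 3.07 ± 0.0173% against 2.83 ± 0.0198% (SD, n = 3 each). Their sum was 8.15% higher, and again the groups did not overlap. Among the mitochondrial genes, knockdown replicate 1 stood apart from the other libraries labelled knockdown and lay closer to the controls. The mitochondrial sum was 18.6% lower without it, and 14.2 and 14.4% lower without replicates 2 and 3. In bulk RNA, fewer cells and less RNA per cell cannot be told apart.

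The difference between 2 sets of genes within a library is unchanged when all values of that library are multiplied by 1 factor. The mean log2 TPM of the 13 mitochondrial genes minus that of the 82 tested nuclear genes was 3.72, 3.74 and 3.76 in control replicates 1, 2 and 3. It was 3.54, 3.38 and 3.37 in the libraries labelled knockdown. Every library labelled knockdown thus lay below every control, with replicate 1 again the closest to them. The group means were 3.74 ± 0.0221 and 3.43 ± 0.0944 (SD, n = 3 each), a difference of -0.31, or -0.36 without knockdown replicate 1 and -0.41 after quantile normalization. As a ratio of geometric means per gene, mitochondrial transcripts were 13.3 times as abundant as nuclear ones in the controls and 10.8 times as abundant in the libraries labelled knockdown.
The same difference was taken within each complex that has subunits from both genomes. It was -0.38 in complex IV, -0.35 in complex V, -0.32 in complex I and -0.17 in complex III. The mitochondrial side held 3 genes in complex IV, 2 in complex V, 7 in complex I and 1 in complex III. Whether the complexes differ was not tested. In each of the 4 complexes the values of the groups did not overlap.

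**Figure D1:**
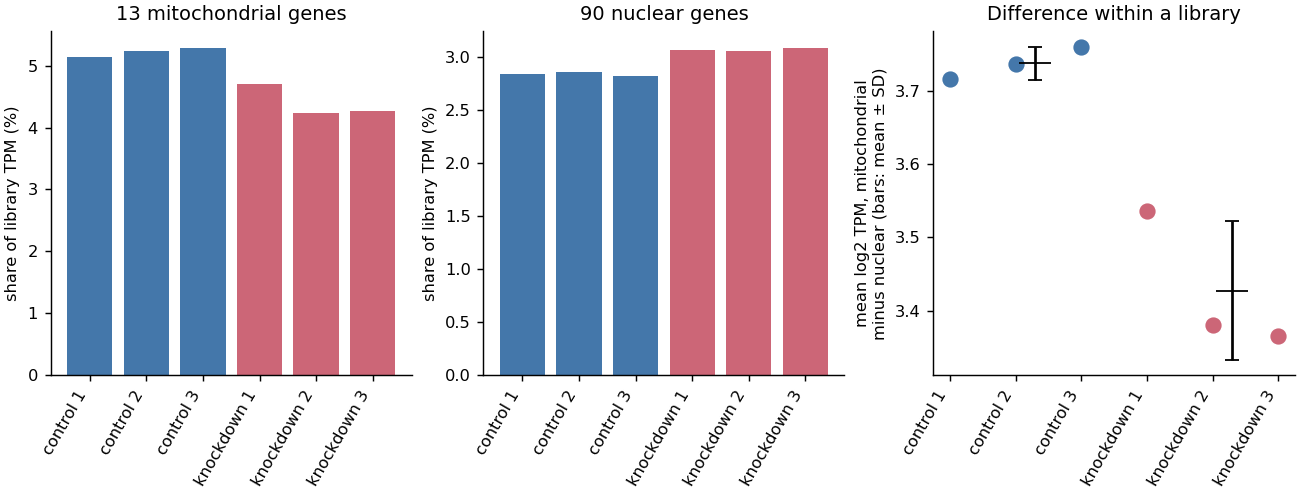
Bars show the summed TPM of the 13 mitochondrial genes (left) and the 90 nuclear genes (middle) as a percent of each library, and points (right) show the mean log2 TPM of mitochondrial minus tested nuclear genes in each library, with the group mean ± SD (n = 3). The mitochondrial share is 5.14 to 5.29% in the controls and 4.24 to 4.70% in the libraries labelled knockdown, and the within-library difference is 3.72 to 3.76 against 3.37 to 3.54.

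Single genes were fitted on log2(TPM + 1) with limma over all 13722 tested genes, and a gene was called at an adjusted p under 0.05. The fold changes below are on this scale, as knockdown minus control. Of the 13 mitochondrial genes 11 were called lower, and none higher. Of the 82 tested nuclear genes 36 were called higher, 4 lower and 42 neither. Over all tested genes 36.1% were called, 24.0% lower and 12.1% higher, and among genes whose mean reached 100 TPM the shares were 38.1% lower and 26.8% higher. The 3 values of one group lay wholly above or below those of the other for 11 mitochondrial and 50 nuclear members, against 50.2% of all tested genes and 74.2% of those whose mean reached 100 TPM. No member was called with a log2 fold change past 1 in size, and 1.87% of all tested genes were. The median log2 fold change was -0.21 over the mitochondrial genes, 0.09 over the tested nuclear genes and -0.06 over all tested genes.
The scaling of the libraries moves these splits. After median-of-ratios scaling the median over all tested genes was 0.00 and the mitochondrial and nuclear medians were -0.14 and 0.16. Called members were then 6 lower and 50 higher, against 15 lower and 36 higher in TPM. Over all tested genes 16.27% were called lower and 16.83% higher under median-of-ratios scaling. The lower share of called members went from 29.4% to 10.7%, and that of all called genes from 66.5% to 49.2%.

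Of the 7 mitochondrial subunits of complex I, which form its proton-pumping membrane core, 5 were called lower. MT-ND4L (ENSG00000212907, bases 10470 to 10766 of mitochondrial DNA) was 6689.7, 6832 and 7367 TPM in the controls and 5489.7, 4956 and 4759.5 TPM in the libraries labelled knockdown. All 3 libraries labelled knockdown lay below the lowest control. Its log2 fold change of -0.46 ± 0.06 (SE) was the largest fall of any called member. MT-ND4 (bases 10760 to 12137), which shares 7 bases with MT-ND4L, was 2489, 2500.5 and 2463 TPM in the controls and 1982, 1866 and 1868 TPM in the libraries labelled knockdown. Its groups lay far apart beside a control SD of 19.1 TPM, with a log2 fold change of -0.38 ± 0.03 (SE).
MT-ND1 was 1946, 1941 and 1963 TPM in the controls against 1724, 1589 and 1549.6 TPM, a log2 fold change of -0.27. MT-ND2 and MT-ND5 had log2 fold changes of -0.21 and -0.16, and that of MT-ND5 became -0.09 and lost its call after median-of-ratios scaling. In these 3 genes the highest library labelled knockdown was replicate 1.
The other subunits of this complex were not called. MT-ND3 was 3052, 3174 and 3190.2 TPM in the controls and 3295, 2917 and 3007 TPM in the libraries labelled knockdown. Knockdown replicate 1 lay above all controls and replicates 2 and 3 below them, and its log2 fold change of -0.03 became 0.04 after median-of-ratios scaling. MT-ND6 (bases 14149 to 14673) is the one subunit gene on the minus strand of the reference, opposite to the other 12. It was 613.2, 629.2 and 594.2 TPM in the controls and 616.8, 558.4 and 606 TPM in the libraries labelled knockdown. Its groups overlapped, and its log2 fold change of -0.05 ± 0.04 (SE) became 0.03 after median-of-ratios scaling. The summed transcripts of the 12 plus strand genes were 15.9% lower.

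MT-CYB encodes cytochrome b, the mitochondrial subunit of complex III. It was 1487, 1478 and 1501 TPM in the controls and 1394, 1341 and 1316 TPM in the libraries labelled knockdown. The groups did not overlap, and the log2 fold change of -0.14 ± 0.02 (SE) became -0.07 and lost its call after median-of-ratios scaling.
The 3 mitochondrial subunits of complex IV form its catalytic core and were all called lower, by unequal amounts. MT-CO1, which holds the site of oxygen reduction, was 5057, 4966 and 5107 TPM in the controls and 4093, 3921 and 3857 TPM in the libraries labelled knockdown. MT-CO3 was 6004, 6227 and 6264 TPM in the controls and 5409, 5149 and 5307 TPM in the libraries labelled knockdown. MT-CO2, which takes electrons from cytochrome c, was 7653, 7661 and 7928 TPM in the controls and 7441, 6965 and 6985 TPM in the libraries labelled knockdown. No group overlapped, and the log2 fold changes were -0.35 ± 0.02, -0.22 ± 0.02 and -0.12 ± 0.03 (SE) for MT-CO1, MT-CO3 and MT-CO2. The call of MT-CO2 was lost after median-of-ratios scaling and in 5 of 6 fits with a library removed.
MT-ATP8 and MT-ATP6 encode membrane subunits of complex V and share 46 bases, so reads in the shared stretch can be split between them in more than one way. MT-ATP8 was 10072, 10647 and 10238 TPM in the controls and 9643, 7766 and 7947 TPM in the libraries labelled knockdown. Replicate 1 lay between the controls and the other libraries labelled knockdown, and the log2 fold change was -0.29 ± 0.08 (SE). MT-ATP6 was 3599.9, 3602.5 and 3559 TPM in the controls and 3399, 3065 and 3111 TPM in the libraries labelled knockdown, a log2 fold change of -0.17 ± 0.04 (SE). Both calls were lost after median-of-ratios scaling, where the log2 fold changes were -0.22 for MT-ATP8 and -0.10 for MT-ATP6. Leaving out single libraries ended the call of MT-ATP8 in 5 of 6 fits and that of MT-ATP6 in 3 of 6.
A nuclear copy, MTATP6P1 on chromosome 1, has a near-identical sequence and was also lower, at 334.6 ± 15.1 TPM in controls and 276.4 ± 7.75 TPM under the knockdown label (SD, n = 3 each). Its reads and those of MT-ATP6 may not be separable, and its part in these values was not tested.

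**Figure D2:**
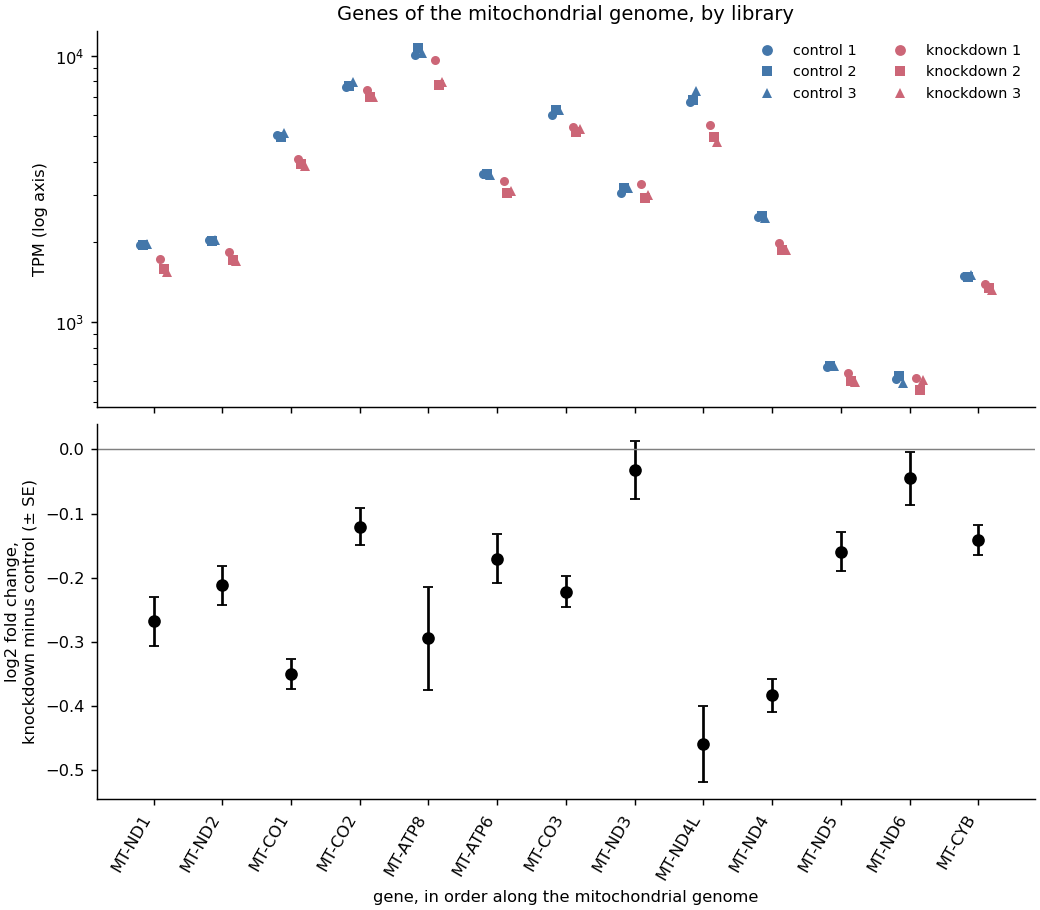
The upper panel shows the TPM of the 13 mitochondrial subunit genes in each of the 6 libraries on a log axis, in their order along mitochondrial DNA, and the lower panel shows the log2 fold change, knockdown minus control, with its SE. Fold changes run from -0.46 (MT-ND4L) to -0.03 (MT-ND3), and those of MT-ND3 and MT-ND6 turn positive after median-of-ratios scaling.

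The nuclear subunits of complex I spanned fold changes in both directions. Of 36 tested, 15 were called higher, 2 lower and 19 neither, and the median was 0.08. Beside the counts of this complex and of those below stand 12.1% of all tested genes called higher and 24.0% called lower. Among genes whose mean reached 100 TPM these shares were 26.8% and 38.1%. The largest rise was that of NDUFC1, an accessory subunit, which was 105, 101.1 and 95 TPM in the controls and 120.6, 127.7 and 128.8 TPM in the libraries labelled knockdown. All libraries labelled knockdown lay above all controls, and the log2 fold change was 0.32 ± 0.04 (SE). NDUFS1, the largest subunit, whose promoter window is shown above, was 35.5, 36.4 and 35.9 TPM in the controls and 45.7, 41.4 and 44.7 TPM in the libraries labelled knockdown. Its groups lay apart, and the log2 fold change was 0.28 ± 0.04 (SE).
Among the 7 nuclear core subunits, which carry the electron path, 3 were called higher and 4 were not called. NDUFS5, the most abundant nuclear subunit of the complex, was 1045 ± 3.33 TPM in controls and 1052 ± 23.9 TPM under the knockdown label (SD, n = 3 each). That difference is smaller than the spread between the libraries labelled knockdown. The pair called lower, NDUFA11 and NDUFB7, was named after the values were seen. NDUFA11 was 713.6 ± 6.41 and 676.2 ± 7.89 TPM (SD, n = 3 each), and its log2 fold change of -0.08 became -0.01 after median-of-ratios scaling. No nuclear member was called lower under that scaling. NDUFB7 was 416.4 ± 4.07 and 398.7 ± 0.347 TPM (SD, n = 3 each), and its log2 fold change of -0.06 became 0.01 after median-of-ratios scaling.

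Complex II, succinate dehydrogenase, is wholly nuclear encoded, and its 4 subunits did not move together. SDHA, the flavoprotein, was 88.9, 90.8 and 95.5 TPM in the controls and 101.8, 103.6 and 100.01 TPM in the libraries labelled knockdown, a log2 fold change of 0.15 ± 0.03 (SE). SDHB, the iron-sulphur subunit, was 226.5, 231.8 and 243.5 TPM in the controls and 211.6, 219.5 and 213.9 TPM in the libraries labelled knockdown, a log2 fold change of -0.12 ± 0.03 (SE). The groups of SDHA and SDHB did not overlap, in opposite directions.
SDHC, a membrane anchor, was 119.4, 124.7 and 122.7 TPM in the controls against 114.4, 114.7 and 108.5 TPM, a log2 fold change of -0.12 ± 0.03 (SE). SDHD, the other anchor, was 61.7, 60.6 and 62.6 TPM against 60.4, 58.5 and 56.6 TPM, a log2 fold change of -0.07 that was not called. In the anchors, every library labelled knockdown lay below every control. SDHB and SDHC both had log2 fold changes of -0.05 after median-of-ratios scaling and lost their calls, as they did after quantile normalization. Removing a library ended the call of SDHB in 4 of 6 fits and that of SDHC in 3 of 6, and the log2 fold change of SDHD came as near to 0 as -0.01 among the scalings. SDHA has pseudogene copies, of which SDHAP1 was 9.45 ± 0.471 TPM in controls and 9.19 ± 1.63 TPM under the knockdown label (SD, n = 3 each), so its value is uncertain where reads were shared.

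Of the 9 tested nuclear subunits of complex III, 1 was called higher and 8 were not called. UQCRQ, a small subunit whose window is shown above, was 451, 463 and 439.2 TPM in the controls and 522.8, 560.3 and 523.3 TPM in the libraries labelled knockdown. Its groups lay apart, and the log2 fold change was 0.25 ± 0.03 (SE). UQCRFS1, the Rieske iron-sulphur protein, was 47.1, 48.5 and 49 TPM in the controls and 39.8, 40.6 and 47.5 TPM in the libraries labelled knockdown. Replicate 3 of the knockdown lay among the controls, and the log2 fold change of -0.18 ± 0.07 (SE) was not called. UQCRH, the most abundant subunit, was 1076 ± 12.5 and 1098 ± 12.2 TPM (SD, n = 3 each), and its log2 fold change of 0.03 became -0.01 after quantile normalization and 0.10, with a call, after median-of-ratios scaling. Its near-copy UQCRHL was under 1 TPM in every library.

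The nuclear subunits of complex IV had the highest median of the 5 complexes, 0.19, while its mitochondrial core had a median of -0.22. Of 13 tested, 9 were called higher, none lower and 4 neither. COX4I1, a regulatory subunit, was 925.6, 941.6 and 924.4 TPM in the controls and 1091.5, 1099.8 and 1082 TPM in the libraries labelled knockdown. COX5B was 319, 334 and 309.4 TPM in the controls and 379.2, 391.6 and 408.7 TPM in the libraries labelled knockdown. COX5A was 389.1, 402.3 and 370.02 TPM in the controls and 438.5, 457.2 and 521.3 TPM in the libraries labelled knockdown. In all 3 genes the libraries labelled knockdown lay above the controls, and the log2 fold changes were 0.23 ± 0.01, 0.29 ± 0.04 and 0.28 ± 0.07 (SE) for COX4I1, COX5B and COX5A.
COX6B1, COX7A2 and COX8A were called higher as well, with log2 fold changes of 0.24, 0.16 and 0.18. COX6A1, the most abundant subunit, was 1154 ± 28.4 TPM in controls and 1232 ± 35.7 TPM under the knockdown label (SD, n = 3 each). Its log2 fold change of 0.09 was called in TPM, but not when the total was taken over nuclear genes only or in 4 of 6 fits with a library removed. COX7B was 177.9 ± 14.2 and 203.8 ± 20.1 TPM (SD, n = 3 each) and its groups overlapped.
The isoforms known from other tissues were listed at or near 0 TPM, which does not show absence, as the transfer RNAs of the mitochondrial genome are also listed at 0 TPM. COX4I2, known from lung, COX6A2 from heart and muscle, and COX7B2 and COX8C from testis were listed at 0 TPM in all libraries. COX7A1 reached 0.47 TPM and COX6B2 0.06 TPM at most. COX7A2L, which joins complexes III and IV in supercomplexes, was 89.6, 95.3 and 85.2 TPM in the controls and 80.8, 86.8 and 80.2 TPM in the libraries labelled knockdown, with overlapping groups and a log2 fold change of -0.12 that was not called.
NDUFA4, once placed in complex I and now known as a subunit of complex IV, was 133 ± 0.193 and 131.3 ± 5.86 TPM (SD, n = 3 each). Its log2 fold change of -0.02 turned positive after median-of-ratios scaling and quantile normalization. Its paralog NDUFA4L2, known to rise in low oxygen, was 1.04 ± 0.106 and 1.04 ± 0.0702 TPM (SD, n = 3 each), values that lie within replicate spread.

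Of the 18 tested nuclear genes of complex V, 10 were called higher, none lower and 8 neither, with a median of 0.13. The 4 genes of the peripheral stalk (ATP5PB, ATP5PD, ATP5PF and ATP5PO) were all called higher, with log2 fold changes from 0.09 to 0.20. None of the 5 genes of the catalytic head and central stalk was called in TPM, and their log2 fold changes ran from -0.00304 (ATP5F1B, positive after median-of-ratios scaling) to 0.17 (ATP5F1E). ATP5F1E, the epsilon subunit, was 104.6, 109.8 and 98.5 TPM in the controls and 109.95, 118 and 125.4 TPM in the libraries labelled knockdown. ATP5F1E was called higher after median-of-ratios scaling and after quantile normalization. In ATP5F1E and ATP5F1A every library labelled knockdown lay above every control. ATP5F1B, the catalytic beta subunit, was 872 ± 2.61 TPM in controls and 870.1 ± 4.87 TPM under the knockdown label (SD, n = 3 each), values that lie within replicate spread. The median was 0.17 over the peripheral stalk and 0.06 over the head and central stalk, and these became 0.24 and 0.13 with median-of-ratios scaling. Whether the stalk and the head differ was not tested. Both groups of genes were sorted by their place in the enzyme.
ATP5MF, a membrane subunit and the most abundant nuclear member, was 1434, 1489 and 1466 TPM in the controls and 1769, 1652 and 1701 TPM in the libraries labelled knockdown. Its groups did not overlap, and the log2 fold change was 0.22 ± 0.03 (SE). ATP5MC1, ATP5MC2 and ATP5MC3 encode the same c ring protein with different import sequences. ATP5MC2 was 650, 647.8 and 648.2 TPM in the controls and 735, 710.9 and 732.7 TPM in the libraries labelled knockdown. ATP5MC2 and ATP5MC3 were called higher, at log2 fold changes of 0.16 and 0.15. ATP5MC1, at 357.8 ± 7.91 and 380.9 ± 34.2 TPM (SD, n = 3 each), had overlapping groups. ATP5IF1, which met the rule by its symbol but is an inhibitor of the enzyme and no subunit, was 711.5 ± 32.8 and 774.6 ± 5.16 TPM (SD, n = 3 each), a log2 fold change of 0.12 that was called.
The rule also took the read-through genes NDUFC2-KCTD14 and ATP5MF-PTCD1, which share exons with a subunit gene and its neighbour. NDUFC2-KCTD14 was 9.19, 4.26 and 5.99 TPM in the controls and 2.13, 4.88 and 6.01 TPM in the libraries labelled knockdown. Its groups overlapped, and neither read-through gene was called.

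**Figure D3:**
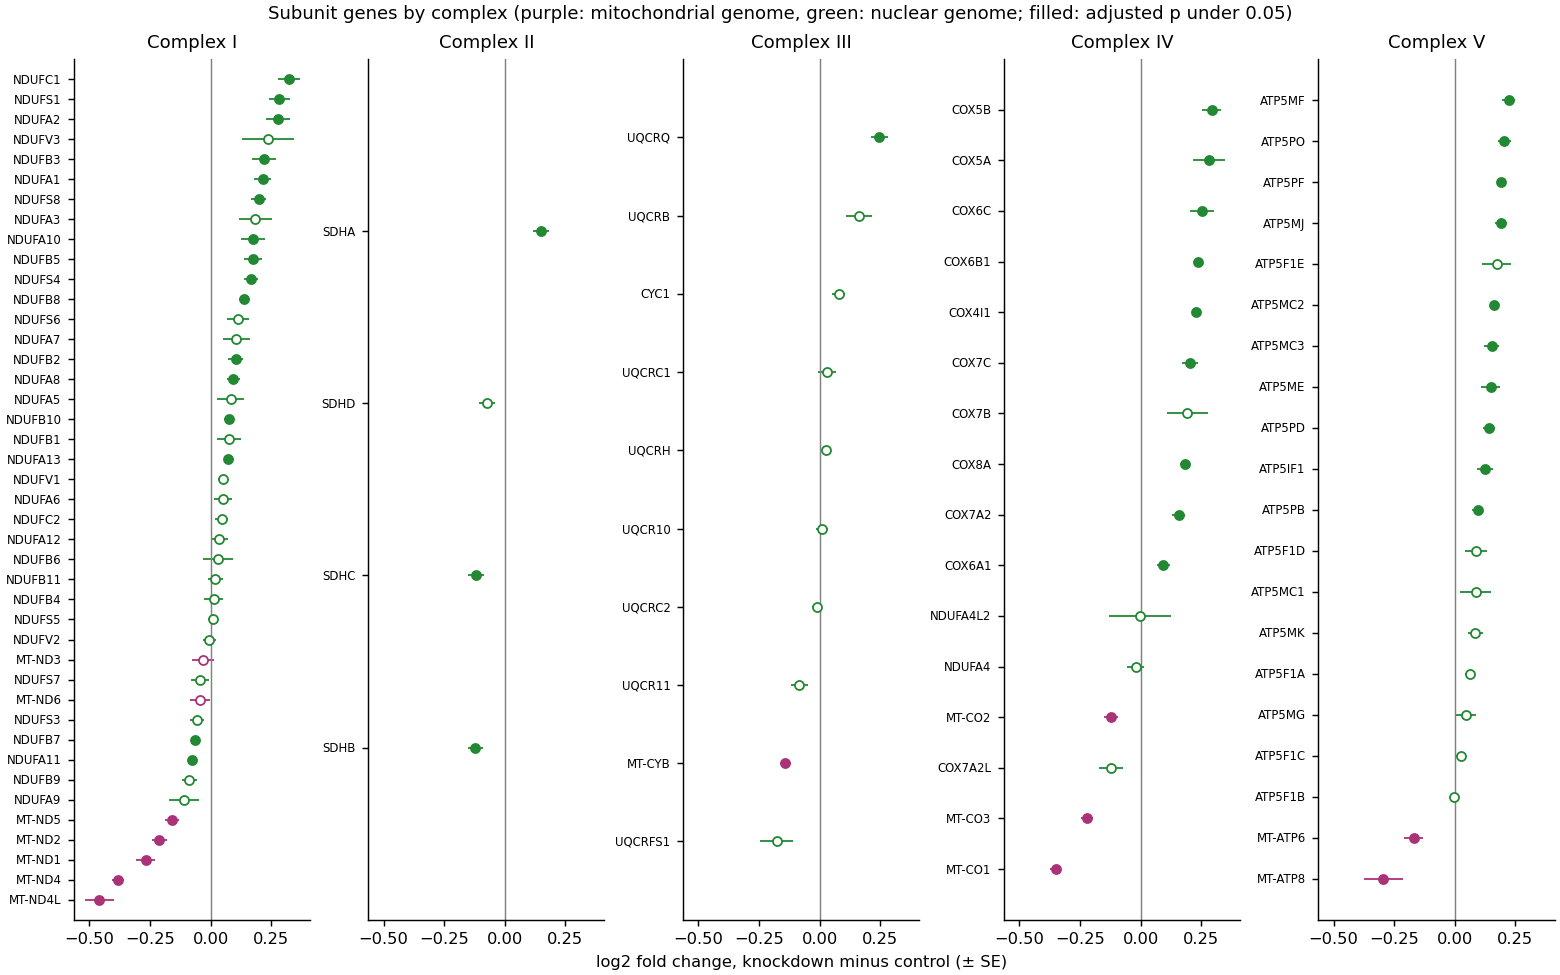
Each point is the log2 fold change, knockdown minus control, of a tested subunit gene with its SE, in a panel for each complex, with mitochondrial genes in purple and nuclear genes in green. Filled points had an adjusted p under 0.05 in limma, and in complexes III, IV and V the mitochondrial genes lie at or near the lower end while 9 of 13 nuclear genes of complex IV and 10 of 18 of complex V are filled on the higher side. Over all tested genes 12.1% were called higher, and 26.8% of those whose mean reached 100 TPM.

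Nuclear members had short transcripts, and many encode small proteins. Length and GC content were those of the longest annotated protein-coding transcript of each gene, which need not be the one expressed here. The median length of nuclear members was 1260 bases, against 3365.5 bases over all tested nuclear protein-coding genes. Median GC content was near equal at 48.3 and 48.4%. The values of each library were then corrected for length and GC content before the fit, a step chosen after the data were seen. After this correction the median of nuclear members was 0.17, with 56 called higher and none lower. Under the same correction 20.6% of all genes fitted were called higher and 19.0% lower, and their median was 0.01. The correction does not cover the mitochondrial genes, and whether length is the cause of any difference was not tested.

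**Figure D4:**
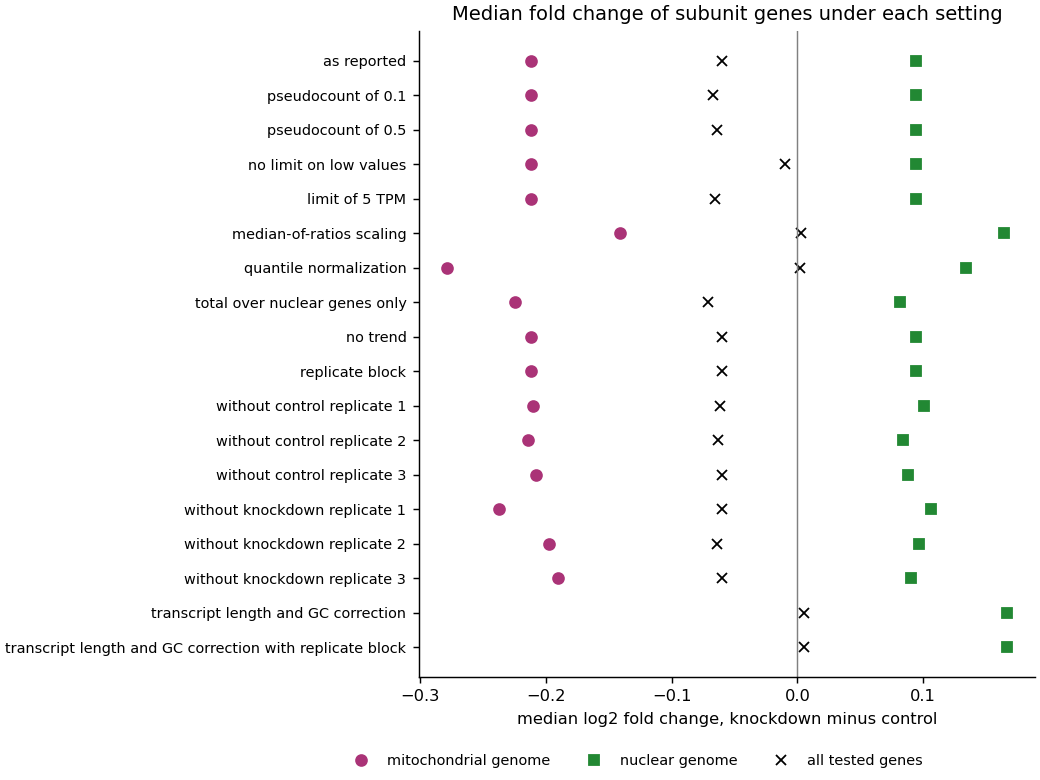
Points give the median log2 fold change, knockdown minus control, of the 13 mitochondrial genes, the tested nuclear members and all tested genes under each processing setting. The mitochondrial median stays between -0.28 and -0.14 and the nuclear median between 0.08 and 0.17, with no mitochondrial value under the length and GC correction.

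Genes that assemble the complexes were given for comparison. Beside the counts of this list and of those below stand the 12.1% of all tested genes called higher and the 24.0% called lower. Of the 50 factors, 5 were called higher, 9 lower and 36 neither, with a median of -0.00467 that became 0.06 after median-of-ratios scaling. COA1, a factor for complexes I and IV, rose from 89.1 ± 2.59 to 117.8 ± 1.37 TPM (SD, n = 3 each, log2 fold change 0.40, limma adjusted p = 0.000163). ECSIT, a complex I assembly factor, fell from 82.7 ± 1.45 to 65.3 ± 2.66 TPM (SD, n = 3 each, log2 fold change -0.34, limma adjusted p = 0.000775). UQCC1, needed for cytochrome b, fell from 101.9 ± 2.56 to 79.3 ± 5.69 TPM (SD, n = 3 each, log2 fold change -0.36, limma adjusted p = 0.00281). In these 3 genes the groups did not overlap.
For complex IV, COX20, which helps mature MT-CO2, rose from 32.5 to 43.6 TPM (log2 fold change 0.41, limma adjusted p = 0.00122). SURF1 rose from 24.5 to 32 TPM (log2 fold change 0.37, limma adjusted p = 0.00265). COX17, the most abundant factor of that list, was 224.6 ± 12.6 and 242.5 ± 4.87 TPM (SD, n = 3 each, limma adjusted p = 0.0867). For complex V, ATPAF2 fell from 19.6 to 15.2 TPM (log2 fold change -0.34, limma adjusted p = 0.0118). None of the 4 factors of complex II was called.

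Of the 9 genes for transcription and replication of mitochondrial DNA, 1 was called higher and 1 lower. SSBP1, which coats single-stranded mitochondrial DNA, rose from 613.9 ± 2.04 to 653.4 ± 18 TPM (SD, n = 3 each, log2 fold change 0.09, limma adjusted p = 0.022). TWNK, the helicase, fell from 19.5 to 15.1 TPM (log2 fold change -0.36, limma adjusted p = 0.0328). The RNA polymerase POLRMT was 55.3 ± 3.09 and 49.5 ± 3.27 TPM (SD, n = 3 each, limma adjusted p = 0.0878). The packaging and transcription factor TFAM was 25.7 ± 0.735 and 25.8 ± 1.44 TPM (SD, n = 3 each, limma adjusted p = 0.967), values that lie well within replicate spread.
Of the 15 genes for processing and stability of mitochondrial RNA, 2 were called higher and 3 lower. SLIRP, a partner of LRPPRC in stabilizing mitochondrial messenger RNA, was 764.7, 759.1 and 750.1 TPM in the controls and 925.6, 914 and 883.1 TPM in the libraries labelled knockdown. Its groups lay well apart (log2 fold change 0.26, limma adjusted p = 0.000264), whereas LRPPRC itself was 54 ± 2.55 and 49.8 ± 0.74 TPM (SD, n = 3 each, limma adjusted p = 0.0712). MTPAP, the mitochondrial poly(A) polymerase, fell from 7.19 to 5.31 TPM (log2 fold change -0.38, limma adjusted p = 0.017).
Of the 8 nuclear regulators, 7 were tested and 2 were called, both lower. NRF1 was 13.5, 16.4 and 17.5 TPM in the controls and 12.5, 11.7 and 12.1 TPM in the libraries labelled knockdown (log2 fold change -0.35, limma adjusted p = 0.0278). GABPB1, the partner of GABPA, fell from 34.5 to 28.6 TPM (log2 fold change -0.26, limma adjusted p = 0.0144), and GABPA was 7.19 and 6.80 TPM (limma adjusted p = 0.413). The coactivator PPARGC1A stayed under 1 TPM in every library.
Of the 16 genes for electron carriers and other entry points, 2 were called, both higher. ETFB, a subunit of the electron transfer flavoprotein, rose from 349.6 ± 5.99 to 387.3 ± 5.99 TPM (SD, n = 3 each, log2 fold change 0.15, limma adjusted p = 0.0025). COQ4, of ubiquinone synthesis, rose from 79.5 to 87.7 TPM (log2 fold change 0.14, limma adjusted p = 0.0111). Cytochrome c (CYCS) was 178.9 ± 6.27 and 163.1 ± 15.5 TPM (SD, n = 3 each, limma adjusted p = 0.179).

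The ribosomal RNAs of the mitochondrial genome, transcribed from the same strand as 12 of the subunit genes, moved apart. MT-RNR1 was 412.2, 409.8 and 425.1 TPM in the controls and 465, 456.3 and 472.3 TPM in the libraries labelled knockdown (log2 fold change 0.16, limma adjusted p = 0.00219). MT-RNR2 was 1402, 1395 and 1383 TPM in the controls and 1291, 1265 and 1275.5 TPM in the libraries labelled knockdown (log2 fold change -0.13, limma adjusted p = 0.000876). In neither gene did the groups overlap. The labels and the paper name different library kits, so how ribosomal RNA was captured or removed is unknown. The part of this step in these values was not tested. Among the scalings the log2 fold change of MT-RNR1 reached 0.23, and that of MT-RNR2 shrank to -0.04 and lost its call after quantile normalization.

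**Figure D5:**
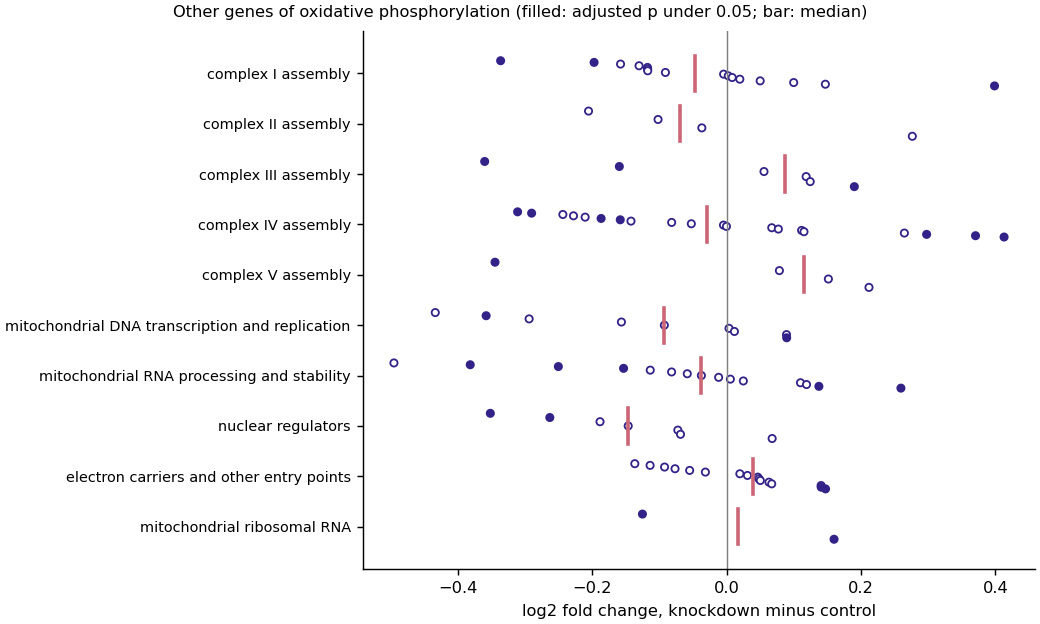
Each point is the log2 fold change, knockdown minus control, of a tested gene in the lists of assembly factors, mitochondrial DNA and RNA factors, nuclear regulators, electron carriers and mitochondrial ribosomal RNA, and each bar is the median of its list. Filled points had an adjusted p under 0.05 in limma, and among the assembly factors they lie on both sides of 0, 5 higher and 9 lower.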

How the data were processed

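RNA of 6 U87-MG libraries was measured. The authors deposited TPM to 2 decimals. The submitters' processing notes name fastp, RSEM and the build GRCh38.p13, and the aligner is not given in the sources used here. The labels name RNeasy and SMARTER kits, whereas the paper gives TRIzol extraction and a TruSeq kit. The members and lists were chosen with earlier results of these data known.
Symbols were matched for 61369 of 61541 Ensembl identifiers, and gene types and coordinates came from GENCODE 29 (GRCh38). Genes whose mean reached 1 TPM were fitted as log2(TPM + 1) in limma 3.58.1 (R 4.3.3, eBayes with a trend, group as the only term) with Benjamini-Hochberg adjustment over 13722 genes, and the fit was tested on simulated data. The pseudocount understates changes of low genes. TPM keeps no depth, so no counting error is given. Groups of complexes were sorted by known structure, with NDUFA4 and NDUFA4L2 under complex IV. The NRF1 and YY1 motifs were shortened to 9 letters after a first search with 10 had been seen. The symbols miss NDUFAB1, a subunit of complex I, and DMAC2L, a coupling factor of complex V.
Named genes were all mitochondrial members, the most abundant nuclear member of each complex, the 5 largest nuclear rises and falls, complex II, tissue or oxygen paralogs, and in each other list the 2 most abundant and 2 most changed. A gene that this rule takes is not reported here. Other genes named were chosen after their values were seen. Alternatives varied the pseudocount (0.1, 0.5), the limit (none, 5 TPM), the scaling (median of ratios, quantile, total over nuclear genes), the trend, a replicate block and each library left out. Figures and sums used Python 3.11.15 with pandas 2.3.3, numpy 2.4.6 and matplotlib 3.10.9.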

Additional observations from a re-analysis of the deposited data

How the results depend on the processing

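Of 45 called genes that the naming rule takes, all 45 kept their direction under every setting and 27 stayed past the threshold under every setting. The remaining called genes lost their call under some setting, and this loss is not stated beside each of them above. NDUFB7, named after its values were seen, turned from -0.06 to 0.01 under median-of-ratios scaling. Under median-of-ratios scaling 6 members were lower instead of 15, and the mitochondrial and nuclear medians were -0.1409 and 0.1648 instead of -0.2118 and 0.09414. Under quantile normalization these medians were -0.2787 and 0.1338, and the mitochondrial minus nuclear difference was -0.4104 instead of -0.3098. Without the trend 9 members were lower and 27 higher, with 0 nuclear members lower instead of 4. Without a limit on low values 10 were lower and 28 higher, with 38 of the 51 calls shared. The correction for transcript length and GC content, chosen after seeing the data and limited to nuclear genes, gave 0 lower and 56 higher by limma and a nuclear median of 0.1665. The same values of 0 and 0.1665 came with the replicate block added, with 47 higher. The cause was not tested. Leaving out 1 library in turn gave 9 to 14 lower, 27 to 36 higher, mitochondrial medians of -0.2377 to -0.1908, nuclear medians of 0.08414 to 0.1065 and differences of -0.3641 to -0.279. The lowest count of 9 came without control replicate 2.
The replicate block gave 12 lower and 29 higher. Deviations of same-numbered libraries correlated at -0.0198, 0.0341 and 0.0334 (numbers 1, 2 and 3), which gave no sign of pairing by number. Such values cannot exclude that same-numbered libraries were handled together. The mitochondrial minus nuclear difference uses no pseudocount, trend or block and is unchanged by scaling a library, and it has no value with genes at 0 TPM included. TPM carries no depth, so the precision of single values is unknown.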

Other observations

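A subunit gene and a coupling factor gene that the symbols miss gave further values. NDUFAB1, the acyl carrier protein of complex I, fell from 207.1 ± 3.01 to 188.4 ± 3.62 TPM (SD, n = 3 each, log2 fold change -0.14, limma adjusted p = 0.00502). DMAC2L, known earlier as ATP synthase coupling factor B, was 2.45 ± 0.197 and 2.64 ± 0.475 TPM (SD, n = 3 each, limma adjusted p = 0.697).
All 22 transfer RNA genes of the mitochondrial genome were listed at 0 TPM in every library, as were the nuclear members COX4I2, COX6A2, COX7B2, COX8C and ATP5MGL.
The 404 annotated nuclear copies of mitochondrial genes summed to 355.3 ± 17.2 TPM in controls and 293.6 ± 8.72 TPM under the knockdown label (SD, n = 3 each), a sum that was 17.4% lower. Most of it was MTATP6P1, at 338.8, 347.2 and 317.8 TPM in the controls and 277, 268.3 and 283.7 TPM in the libraries labelled knockdown. Each of the 3 libraries labelled knockdown lay below each control.
POLG, the mitochondrial DNA polymerase, was 45.5, 28.9 and 28.4 TPM in the controls and 24.9, 24.8 and 23.9 TPM in the libraries labelled knockdown, with control replicate 1 far above the other 5 libraries (limma adjusted p = 0.0981).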
